A study of Mus musculus with 12 samples.

Results

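The replication-dependent histone genes are described here in 2 mouse tumour cell lines grown with and without decitabine (DAC), a cytidine analogue that is built into DNA and traps DNA methyltransferases. They were taken by name, as every row of the count tables whose gene name begins with Hist and a cluster number from 1 to 4, followed by h and a histone type, and 71 of 46517 rows matched. By type these were 6 linker histone H1 genes, 20 H2A, 20 H2B, 12 H3 and 13 H4 genes. By cluster, 56 lay in Hist1 on chromosome 13, 11 in Hist2 on chromosome 3, 3 in Hist3 on chromosome 11 and 1 in Hist4 on chromosome 6. Of the 71 rows, 69 matched the GENCODE M21 annotation of mm10 by identifier, and Hist1h2bh and Hist1h2bm did not. The name Hist2h2bb stood on 2 rows, and the second of them carried the identifier of the long non-coding RNA Gm42743 and is called Hist2h2bb(Gm42743) below. By annotation 65 of the rows were protein-coding genes and 3 were pseudogenes.

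The 4 groups, of 3 libraries each, were 4T1 cells with 1 µM DAC for 48 h, 4T1 cells without the drug, B16F10 cells with 0.1 µM DAC for 48 h, and B16F10 cells without the drug. 4T1 is a mammary carcinoma line and B16F10 a melanoma line, and dead cells were removed in every group before RNA was taken. Each line is 1 cell population grown in culture, and the dose differed together with the line, so that dose and line cannot be told apart. Separate cultures are not stated for the replicates. The p-values therefore rest on the spread among these libraries alone, and that spread may be technical.

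Library totals were 48197936 to 76042600 estimated counts, so that 3 counts in a library are worth 0.0395 to 0.0622 CPM, the usual scaling of counts to library size. All other CPM are also scaled by TMM factors. Intervals and lower bounds given below cover counting error only. All 10 melanocyte markers reached a mean of 1 CPM in both B16F10 groups, with sums of 18400 to 21600 CPM per library, and 2 of 10 did so in both 4T1 groups. All 10 epithelial and mammary markers reached it in both 4T1 groups and 2 of 10 in both B16F10 groups. Male germ cell markers summed to 168 to 184 CPM in 4T1 DAC libraries and 0.0783 to 0.144 CPM in 4T1 control libraries, and to 5.68 to 6.44 CPM in B16F10 DAC and 0.268 to 0.408 CPM in B16F10 control libraries. Of the 8 male germ cell markers, 3 reached a mean of 1 CPM in each DAC group and 0 did so in each control group. Tnp1 was at 0 in all 4 groups, and Prm1, Prm2, Tnp2 and Acrv1 were also at 0 in B16F10 DAC libraries. The part of germ cell marker expression in the histone results was not tested. Fibroblast markers summed to 21.2 to 24.5 CPM in 4T1 DAC, 11.0 to 11.5 CPM in 4T1 control, 57.5 to 62.7 CPM in B16F10 DAC and 46.8 to 52.2 CPM in B16F10 control libraries. In 4T1 endothelial markers summed to 23.1 to 46.6 CPM in DAC and 11.3 to 16.6 CPM in control libraries, and blood and immune markers to 2.25 to 4.06 and 0.137 to 0.191 CPM. In B16F10 endothelial markers summed to 0.212 to 0.583 CPM in DAC and 0.0502 to 0.169 CPM in control libraries, and blood and immune markers to 1.19 to 2.09 and 0.847 to 1.07 CPM.

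Replication-dependent histone genes supply the histones that package newly made DNA, and their transcripts accumulate while the genome is copied in S phase. Most have no intron, and their messenger RNA usually ends shortly after a conserved stem-loop instead of in a poly(A) tail. The stem-loop is bound by SLBP and cut with the help of the U7 small nuclear ribonucleoprotein. Some of these genes are also known to make longer polyadenylated transcripts, above all in cells that have left the cell cycle. How libraries were selected for RNA decides how much of either form is counted. The series speaks of messenger RNA, the labels name total RNA as the molecule, and selection of poly(A) RNA is not described.

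The stem-loop is shown first because it marks where the canonical transcript ends, and the annotated transcripts of these genes differ in whether they stop there. Searched on the sense strand of the M21 transcripts as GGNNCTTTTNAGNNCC, it was present in 42 of the 71 genes, and in 72 of 21901 protein-coding genes in all (0.329%). It came in 6 variants, of which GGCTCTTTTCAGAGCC was found in 24 genes. Below, the stem-loop is in capitals with up to 5 flanking bases on each side, read from the M21 transcripts (mm10).
Hist1h1c: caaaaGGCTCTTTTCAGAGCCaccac
Hist1h2bj: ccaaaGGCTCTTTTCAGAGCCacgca
Hist1h2ap: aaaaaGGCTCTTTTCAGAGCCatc
Hist2h2aa2: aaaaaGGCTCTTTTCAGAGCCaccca
Hist1h3c: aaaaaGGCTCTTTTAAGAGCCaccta
Hist1h4n: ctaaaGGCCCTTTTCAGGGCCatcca
Hist1h4i: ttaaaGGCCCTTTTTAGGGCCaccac
They lie at chr13:23739507-23739532 on the plus strand (Hist1h1c), chr13:22043633-22043658 on the plus strand (Hist1h2bj), chr13:21833026-21833049 on the minus strand (Hist1h2ap), chr3:96239779-96239804 on the minus strand (Hist2h2aa2), chr13:23745042-23745067 on the minus strand (Hist1h3c), chr13:21831793-21831818 on the minus strand (Hist1h4n) and chr13:22040961-22040986 on the minus strand (Hist1h4i). The annotated Hist1h2ap transcript runs 3 bases past the stem-loop and that of Hist1h2bj 23 bases, whereas the longest Hist1h1c transcript runs 840 bases past it. Hist1h2bc, the highest of all these genes in 4T1 DAC libraries, has no stem-loop in its annotated transcripts.

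The promoter windows of 3 genes are shown for the elements they hold, because the starts of Hist1h2bc, Hist1h2bj and Hist1h1c, which lead the results, lie in them. Sequences are from RefSeq on GRCm38.p6, 300 bases each, with capitals at matches on either strand to the TATA element TATAAA, to the CCAAT element of its own name, and to the octamer ATTTGCAT known from H2B promoters. No matches overlap here.
Hist1h2ac: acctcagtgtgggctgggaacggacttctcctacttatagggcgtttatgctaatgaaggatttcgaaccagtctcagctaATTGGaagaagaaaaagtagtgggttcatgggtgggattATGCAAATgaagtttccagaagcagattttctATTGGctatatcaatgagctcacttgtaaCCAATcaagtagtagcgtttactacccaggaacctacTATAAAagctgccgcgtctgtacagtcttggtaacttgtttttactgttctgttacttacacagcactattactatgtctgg
Hist1h2bj: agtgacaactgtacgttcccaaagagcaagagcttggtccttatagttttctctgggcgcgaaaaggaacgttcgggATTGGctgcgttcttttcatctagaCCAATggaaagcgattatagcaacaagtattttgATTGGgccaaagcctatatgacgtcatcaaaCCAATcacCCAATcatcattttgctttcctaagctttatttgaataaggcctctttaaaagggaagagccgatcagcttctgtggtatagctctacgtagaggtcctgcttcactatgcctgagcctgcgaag
Hist1h1c: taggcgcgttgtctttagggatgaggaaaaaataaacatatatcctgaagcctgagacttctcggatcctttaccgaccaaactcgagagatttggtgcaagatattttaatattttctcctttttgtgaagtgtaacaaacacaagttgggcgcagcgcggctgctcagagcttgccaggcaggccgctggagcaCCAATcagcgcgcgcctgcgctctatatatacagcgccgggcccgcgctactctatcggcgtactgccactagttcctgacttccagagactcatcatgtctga
These are chr13:23683910-23684209 on the minus strand, chr13:22042948-22043247 on the plus strand and chr13:23738557-23738856 on the plus strand. The first window also holds the start of Hist1h2bc, which is transcribed the other way. Among 62 promoters found for 61 of the genes, ATTTGCAT stood in 41.2% of H2A and 41.2% of H2B promoters and in 0% of H1, H3 and H4 promoters, against 1.74% of the 32851 promoters of the table. CCAAT stood in 100% of H1, H2A, H2B and H3 promoters and 25% of H4 promoters, against 37.4% of all, and TATAAA stood in 56.5% of the histone promoters, against 13.6% of all. These are matches of letters and not tested sites. Some H2A and H2B genes start close together in opposite directions, such as Hist1h2ae and Hist1h2bg. Their windows overlap, so the same match can count under both types, and the H2A and H2B shares are not independent.

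In 4T1 cells the first comparison asked which histone genes changed with DAC. Transcripts of all 5 histone types were higher, by most in H2B. Summed over the 71 genes, they made 311, 319 and 379 CPM in 4T1 DAC libraries, against 37.7, 40.4 and 37.4 CPM in 4T1 control libraries. Every DAC library lay above every control library, and the mean was 8.74 times as high (336 ± 37.4 and 38.5 ± 1.67 CPM, SD, n = 3 each). As a share of all counts this was 0.0288% in DAC and 0.00392% in control libraries. In bulk samples, fewer cells of a type and less RNA per cell cannot be told apart, nor can more cells and more RNA per cell.

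H2B transcripts rose to 167 ± 21.8 CPM in DAC libraries, against 7.35 ± 0.42 CPM in control libraries (SD, n = 3 each), a ratio of 22.7. H1 transcripts came to 64.6 ± 1.76 and 7.42 ± 1.66 CPM, a ratio of 8.70, H3 to 15.9 ± 4.63 and 2.05 ± 0.07 CPM, a ratio of 7.78, and H4 to 29.9 ± 2.75 and 4.34 ± 0.81 CPM, a ratio of 6.87, with DAC first in each pair. H2A had the lowest ratio, 3.43, with 59.5 ± 7.29 CPM in DAC and 17.3 ± 2.53 CPM in control libraries. A single gene, Hist1h2ap, made up 9.77 CPM of that H2A level in controls, and without it H2A came to 45.5 ± 3.94 CPM in DAC and 7.55 ± 0.60 CPM in control libraries (SD, n = 3 each), a ratio of 6.03. By cluster the ratio was 16.7 for Hist2 (9.15 without the non-coding row Hist2h2bb(Gm42743), and 19.0 for H2B without it), 8.44 for Hist1, 3.09 for Hist3 and 2.25 for the single Hist4 gene.

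**Figure D1:**
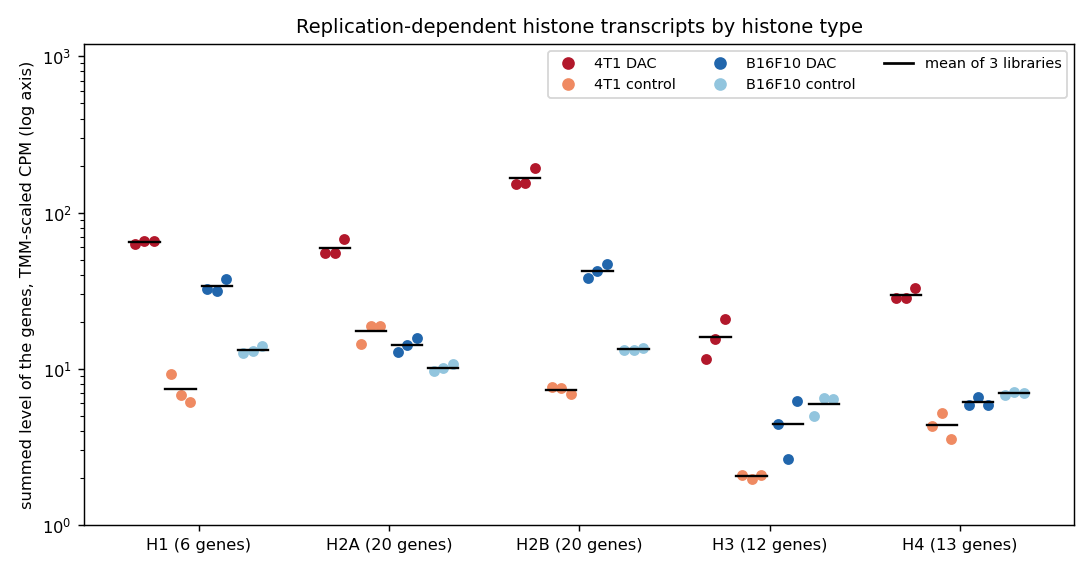
Summed CPM (TMM-scaled, log axis) of the members of each histone type in each library, with points for the 3 libraries of each group and bars for the mean. In 4T1 the DAC libraries lie above the control libraries for all 5 types, with H2B at 167 and 7.35 CPM, while in B16F10 H3 and H4 are at 4.44 and 6.11 CPM with DAC and at 5.96 and 6.97 CPM in control libraries.

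Gene by gene, 59 of the 71 passed the expression filter in 4T1. Of these, 54 were higher and 0 lower at an adjusted p under 0.05 (edgeR quasi-likelihood test, Benjamini-Hochberg adjustment), where 39.2% of all 15523 genes tested were called higher and 36.1% lower. The count of lower genes was 1 without 4T1 DAC replicate 2. It was also 0 at an unadjusted p under 0.05, in DESeq2 and in limma-voom, and higher genes numbered 52 in DESeq2 and 54 in limma-voom. The median log2 fold change was 2.92, beside 0.03 over all genes tested. The CPM rest on a scaling of all 12 libraries, and the test on factors from the 6 libraries of the line. In the former the TMM factors of the 4T1 DAC libraries were 0.848 to 0.864 and those of the other 9 libraries 1.01 to 1.09. With scaling by library size alone, 4248 of all genes were higher and 8242 lower in place of 6087 and 5601, and the median over all genes was -0.27.

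All 5 tested H1 genes, all 15 tested H2B genes and all 12 tested H4 genes were higher, as were 12 of 16 H2A and 10 of 11 H3 genes. Median log2 fold changes were 4.04 for H2B, 3.14 for H1, 3.11 for H4, 2.45 for H3 and 1.99 for H2A. The 5 genes that did not pass were Hist1h2ao, Hist1h2ap, Hist1h2af, Hist2h2ac and Hist2h3b, and among them the log2 fold change was lowest in Hist2h3b, at -0.70 (adjusted p = 0.365 in edgeR). The 12 genes left untested by the filter had at most 482.6 counts over the DAC libraries and 12.0 over the control libraries. The filter keeps genes that are high in only 1 group, so the counts of higher genes describe the genes that passed it and not all 71.

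Hist1h2bc, which encodes a core H2B protein, had 67.5, 69.8 and 76.3 CPM in 4T1 DAC libraries, against 2.41, 2.46 and 2.19 CPM in 4T1 control libraries. The groups lay far apart, and the log2 fold change was 4.97 (SE 0.08, adjusted p = 1.8e-12 in edgeR). Together with Hist1h1c, the next highest, it made up 38.3% of the summed level of the 71 rows, non-coding rows included, in DAC libraries. In control libraries the leading gene was Hist1h2ap, an H2A gene, with 25.4%.

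The largest increase among genes of at least 2 CPM was in Hist2h2bb(Gm42743), a spliced transcript at chr3:96269721-96279001 that overlaps the H2B gene Hist2h2bb. It had 25.9, 27.8 and 39.8 CPM in DAC libraries, against 0.215, 0.162 and 0.229 CPM in control libraries (log2 fold change 7.31, SE 0.27, adjusted p = 1.34e-07 in edgeR). Since it is annotated as a long non-coding RNA, its counts are not a measure of Hist2h2bb messenger RNA. Without it and the other rows that are not annotated as protein-coding, the summed level was still 7.91 times as high in DAC libraries.

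The H2B genes Hist1h2br and Hist1h2bq share 89.5% and 98.3% of their 31-base words with each other, so how reads were divided between them is uncertain. Hist1h2br had 6.62, 7.35 and 10.5 CPM in DAC libraries, against 0, 0.108 and 0.191 CPM in control libraries (log2 fold change 6.37, SE 0.44, adjusted p = 4.75e-06 in edgeR). Hist1h2bq had 7.78, 8.37 and 15.6 CPM in DAC libraries, against 0.294, 0.307 and 0 CPM in control libraries (log2 fold change 5.76, SE 0.65, adjusted p = 0.000529 in edgeR). Both were low in each control library and above 6 CPM in each DAC library.

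Hist1h2bj, an H2B gene whose annotated transcript ends at the stem-loop, had 13.4, 13.8 and 15.1 CPM in DAC libraries, against 0.705, 0.271 and 0.362 CPM in control libraries (log2 fold change 5.04, SE 0.21, adjusted p = 1.79e-08 in edgeR). Hist2h2aa2, an H2A gene identical over its transcript to Hist2h2aa1, had 18.6, 19.9 and 23.3 CPM in DAC libraries, against 0.588, 0.469 and 0.705 CPM in control libraries (log2 fold change 5.18, adjusted p = 2.04e-10). The split between these 2 copies is uncertain. Among H3 genes Hist1h3d had the largest such increase, with 3.80, 4.00 and 5.71 CPM in DAC libraries, against 0.137, 0.0722 and 0.21 CPM in control libraries (log2 fold change 5.06, adjusted p = 8.43e-08 in edgeR). Among H4 genes it was Hist1h4n, with 7.42, 6.85 and 9.12 CPM in DAC libraries, against 0.176, 0.578 and 0.114 CPM in control libraries (log2 fold change 4.77, adjusted p = 9.62e-06 in edgeR). In none of these 4 genes did the groups overlap, but they were picked for their large increases, so this adds no support.

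Hist1h2ap was the exception at high level. It had 13.2, 10.7 and 18.1 CPM in DAC libraries, against 6.83, 10.7 and 11.8 CPM in control libraries, so that the groups overlapped (log2 fold change 0.57, SE 0.27, adjusted p = 0.106 in edgeR). It shares 93.4% of its words with Hist1h2ao, which had 0.822, 0.63 and 0 CPM in DAC libraries, against 0.705, 0.866 and 0 CPM in control libraries. The call on Hist1h2ap changed without 4T1 DAC replicate 2, when its adjusted p was 0.0409.

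The linker histones bind DNA where it enters and leaves the nucleosome. Hist1h1c, which encodes the somatic subtype H1c, had 55.9, 58.3 and 58.8 CPM in DAC libraries, against 8.38, 6.28 and 5.66 CPM in control libraries (log2 fold change 3.14, SE 0.12, adjusted p = 5.09e-08 in edgeR). Hist1h1e had 3.17, 3.45 and 2.79 CPM in DAC libraries, against 0.548, 0.361 and 0.305 CPM in control libraries (log2 fold change 3.00). Hist1h1d rose by 3.28 on the log2 scale (adjusted p = 3.28e-06 in edgeR) and Hist1h1b by 2.92 (adjusted p = 6.39e-05), both at under 2 CPM in every library. Hist1h1a had 276 counts over the DAC libraries and 1 over the control libraries, a ratio of 274.5 after scaling by library totals and TMM factors (95% counting interval 48.9 to 10879). Hist1h1t, known as a testis subtype, had 14 counts over the DAC libraries and 0 over the control libraries, at least 4.64-fold higher against a floor of 3 counts over the group.

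**Figure D2:**
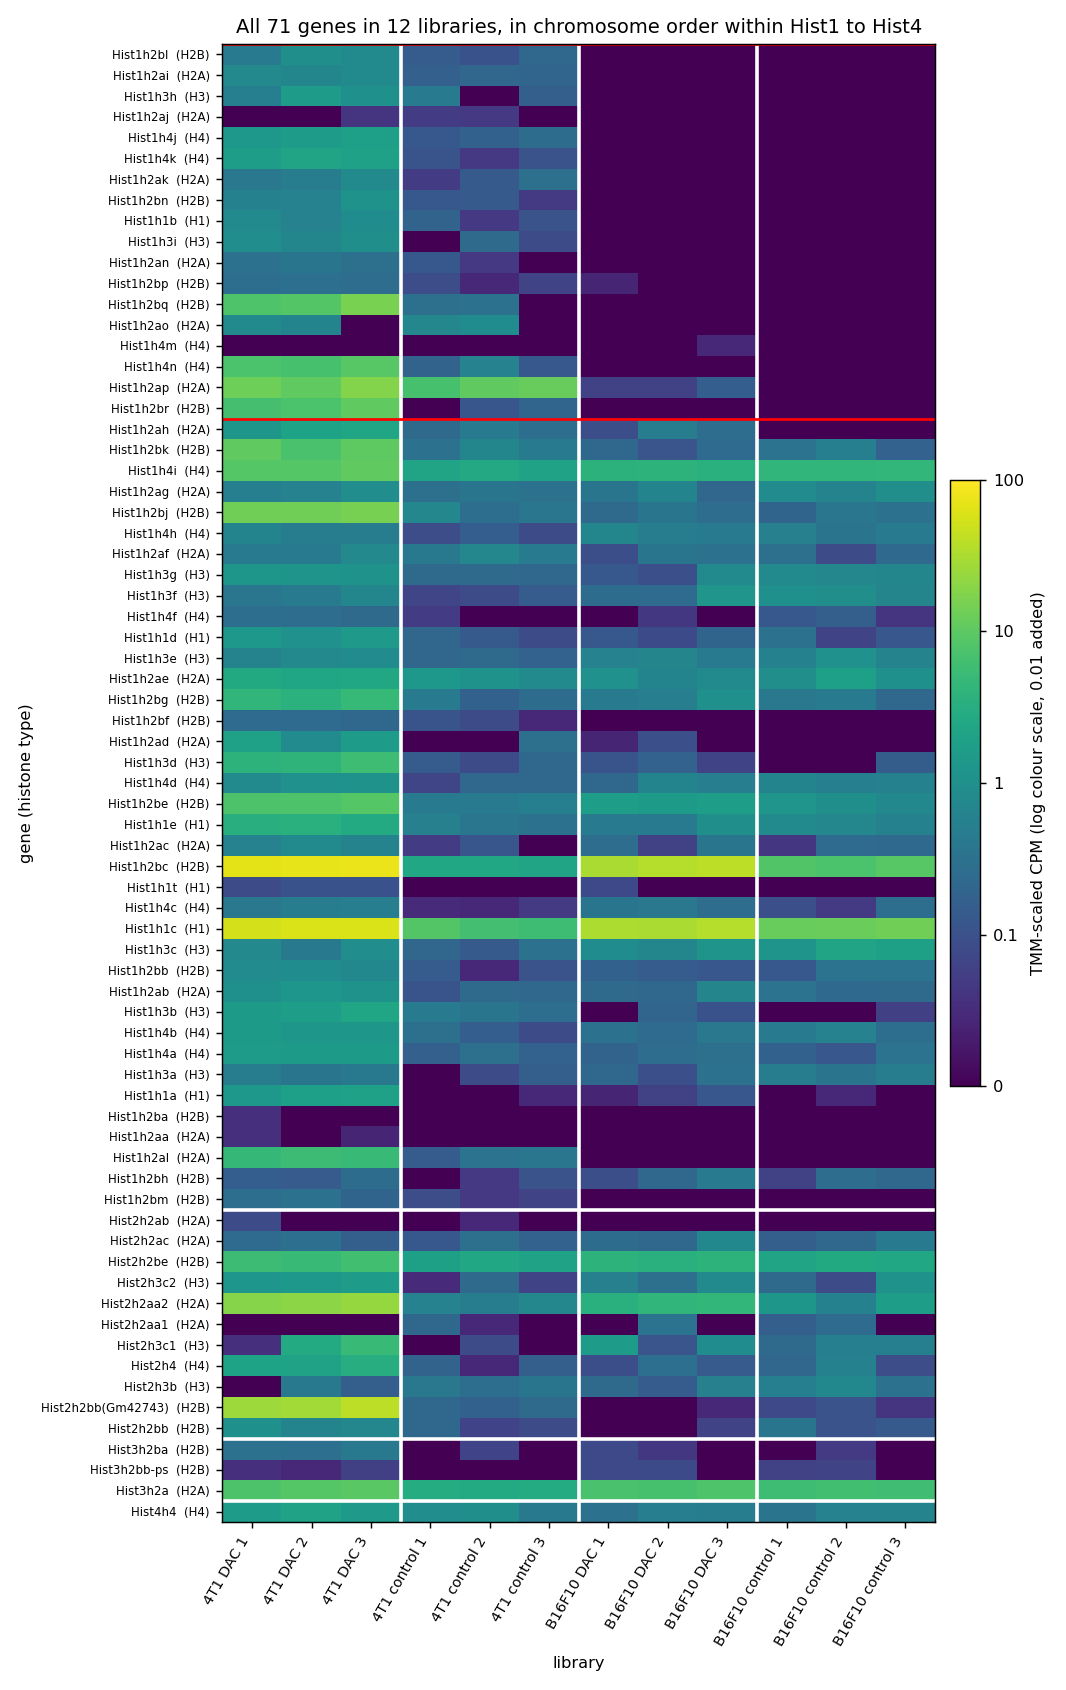
Level of each member (rows, in chromosome order within Hist1 to Hist4) in each of the 12 libraries, as TMM-scaled CPM on a log colour scale with 0.01 added, with DAC libraries left of control libraries in each line. Hist1h2bh and Hist1h2bm stand last in Hist1 because they have no M21 position, and the red line lies below the 18-gene stretch, at the top, that is at 0 in all 3 B16F10 control libraries.

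In B16F10 cells the same comparison gave fewer changes, most of them in genes that also had the highest levels. Genes with few counts are less likely to be tested or called. A mean of 1 CPM was reached by 7 of the 71 genes in B16F10 DAC and by 8 in B16F10 control libraries. The 71 genes summed to 93.6, 97.0 and 113 CPM in B16F10 DAC libraries, against 47.3, 49.7 and 51.7 CPM in B16F10 control libraries. The groups did not overlap, and the ratio of the means was 2.04 (101 ± 10.2 and 49.6 ± 2.23 CPM, SD, n = 3 each). H2B came to 42.3 ± 4.62 CPM in DAC and 13.3 ± 0.23 CPM in control libraries, a ratio of 3.18, and H1 to 34.0 ± 3.29 and 13.2 ± 0.72 CPM, a ratio of 2.58. H2A came to 14.3 ± 1.51 CPM in DAC and 10.2 ± 0.53 CPM in control libraries, a ratio of 1.40. H3 stood at 4.44 ± 1.80 CPM in DAC and 5.96 ± 0.84 CPM in control libraries, with overlapping groups, and H4 at 6.11 ± 0.43 and 6.97 ± 0.16 CPM (SD, n = 3 each), with each DAC library below each control library.

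Of 33 genes tested in B16F10, 6 were higher and 1 lower, where 21.4% of all 14344 genes tested were called higher and 19.8% lower. The share of higher genes among these histone genes was thus near that of all genes. Their median log2 fold change was 0.14, beside 0.00 over all genes tested (0.003). Of the 38 genes that were not tested, 21 were at 0 in all 6 B16F10 libraries. The 6 higher genes were Hist1h2bc, Hist2h2aa2, Hist1h1c, Hist1h2be, Hist2h2be and Hist3h2a.

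Hist1h2bc had 31, 35.6 and 39.4 CPM in B16F10 DAC libraries, against 8.17, 7.40 and 9.03 CPM in B16F10 control libraries (log2 fold change 2.11, SE 0.10, adjusted p = 2.47e-11 in edgeR). Hist1h1c had 32.0, 31 and 36.4 CPM in DAC libraries, against 11.6, 12.1 and 13.3 CPM in control libraries (log2 fold change 1.43, SE 0.08, adjusted p = 1.03e-10). These 2 genes made up 67.7% of the summed level of the 71 rows in B16F10 DAC libraries and 41.4% in control libraries. They thus carried most of the rise of the sum.

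Hist2h2aa2 had 3.46, 4.25 and 4.43 CPM in DAC libraries, against 1.31, 0.565 and 1.69 CPM in control libraries (log2 fold change 1.76, SE 0.31, adjusted p = 0.000761 in edgeR). Hist2h2be, an H2B gene with a long annotated transcript, had 3.81, 3.48 and 3.89 CPM in DAC libraries, against 2.19, 2.67 and 2.42 CPM in control libraries (log2 fold change 0.62, adjusted p = 0.00586 in edgeR). Neither gene's groups overlapped, but both genes were picked for their increases. Hist1h2be, another H2B gene, had 1.76, 1.52 and 1.67 CPM in DAC libraries, against 1.22, 0.979 and 0.737 CPM in control libraries (log2 fold change 0.76, adjusted p = 0.0318 in edgeR).

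Hist3h2a, the H2A gene of the Hist3 cluster, had 7.01, 6.92 and 7.95 CPM in DAC libraries, against 5.68, 6.08 and 5.99 CPM in control libraries (log2 fold change 0.31, adjusted p = 0.0472 in edgeR). This call was lost under several other settings, among them scaling by library size alone (adjusted p = 0.0783). Hist3h2a shares 32.1% of its words with the transcripts of Trim17 on either strand, and no strand setting is stated for the counting. In 4T1 it had 7.71, 8.80 and 9.59 CPM in DAC libraries, against 3.04, 2.80 and 2.92 CPM in control libraries (log2 fold change 1.63, adjusted p = 1.53e-07 in edgeR), while Trim17 stood at 3.14 CPM in 4T1 DAC and 0.238 CPM in 4T1 control libraries.

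The 1 lower gene was Hist1h3c, an H3 gene, with 0.866, 0.685 and 1.16 CPM in B16F10 DAC libraries, against 1.16, 2.13 and 1.88 CPM in B16F10 control libraries (log2 fold change -0.93, adjusted p = 0.0187 in edgeR). It was below 2 CPM on average and was named after its values were seen. The groups overlapped, and the number of lower genes depended on single libraries. It was 0 without B16F10 DAC replicate 1, without B16F10 control replicate 2 and without B16F10 control replicate 3, and 3 without B16F10 DAC replicate 3. Hist1h4i, the highest H4 gene in B16F10, had 3.72, 3.84 and 3.40 CPM in DAC libraries, against 4.32, 4.22 and 4.41 CPM in control libraries (log2 fold change -0.24, adjusted p = 0.209 in edgeR).

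Of the other H1 genes in B16F10, Hist1h1e had 0.441, 0.445 and 0.973 CPM in DAC libraries, against 0.787, 0.697 and 0.565 CPM in control libraries (log2 fold change -0.14, adjusted p = 0.818 in edgeR). Its sign turned with single libraries. Hist1h1d had at most 0.301 CPM in any B16F10 library and Hist1h1b was at 0 in all 6. Hist1h1a had 10 counts over the DAC libraries and 1 over the control libraries (ratio 10.1, 95% counting interval 1.44 to 440.2), and Hist1h1t had 4 and 0 counts, at least 1.35-fold higher in DAC libraries against a floor of 3 counts over the group.

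**Figure D3:**
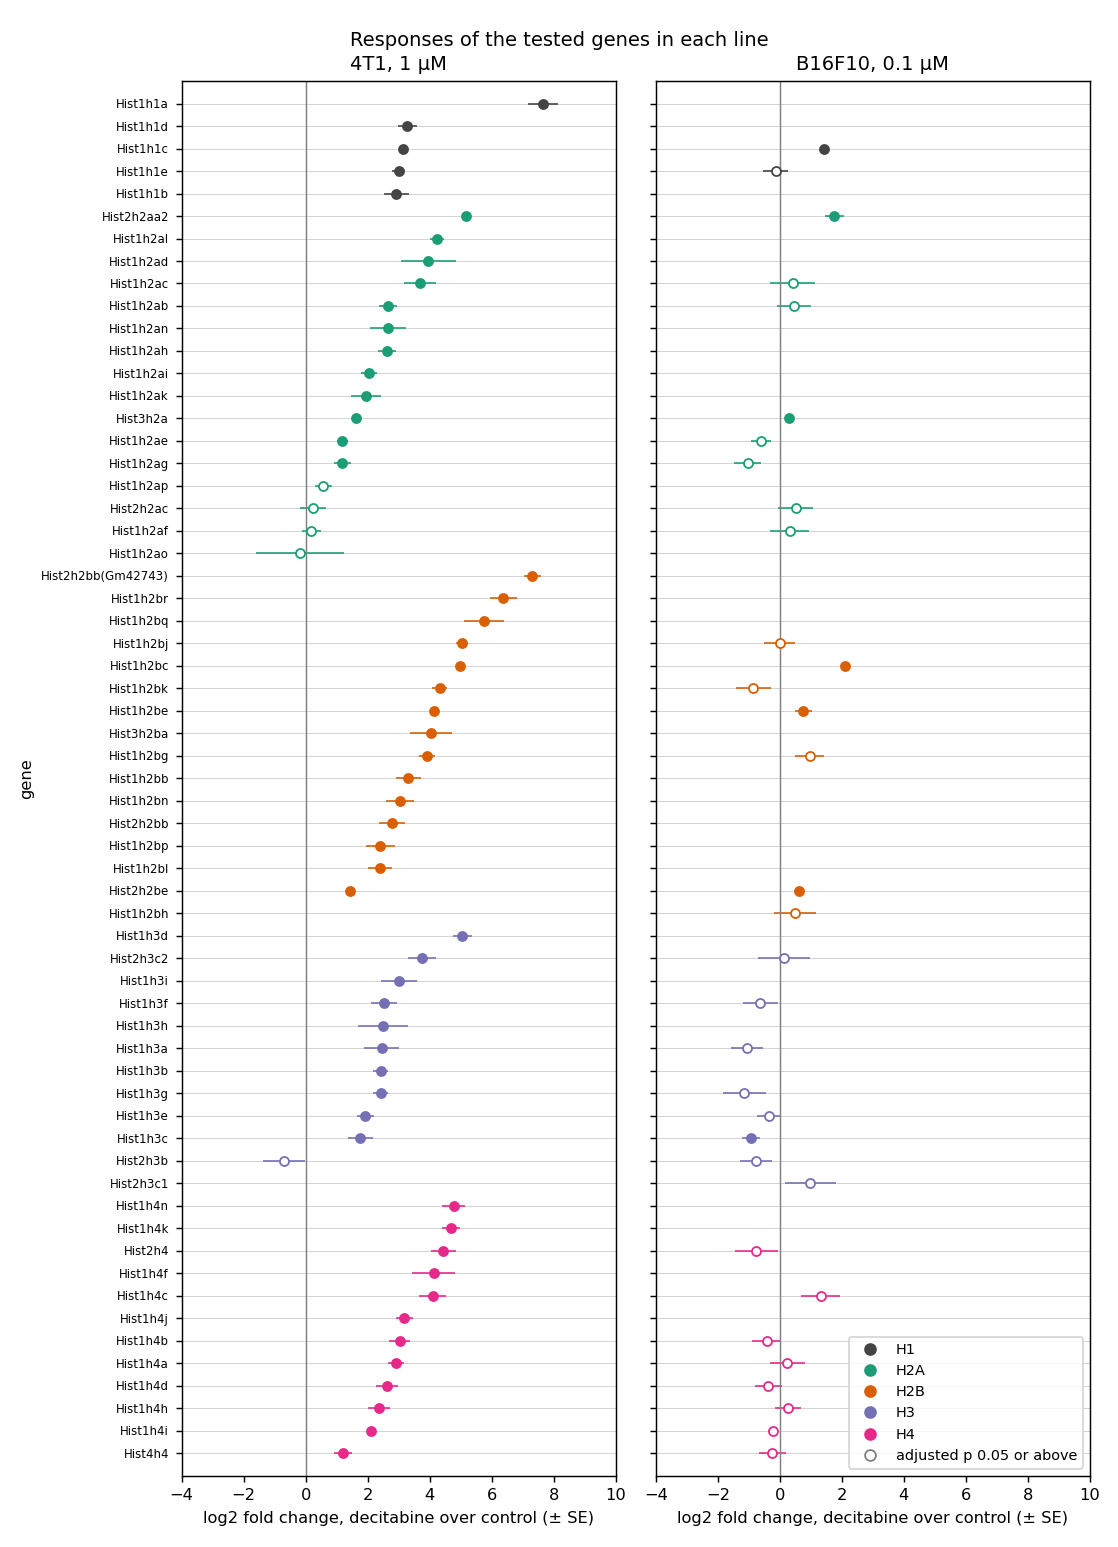
Log2 fold change (DAC over control) of each tested member in 4T1 and in B16F10, coloured and grouped by histone type and sorted within it by the 4T1 value, with bars for the SE, from edgeR. Filled points have an adjusted p under 0.05 and blanks were not tested. The 4T1 values run from -0.70 to 7.66 with a median of 2.92 and the B16F10 values from -1.14 to 2.11 with a median of 0.14.

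The 2 responses were then compared in a fit of all 12 libraries, as the 4T1 response minus the B16F10 response. Of 63 genes tested, 34 had a higher response in 4T1 and 1 a lower one, where 20.9% of all 17127 genes tested were called higher and 28.9% lower. With scaling by library size alone, 2475 of all genes were called higher and 6908 lower, in place of 3577 and 4949. The median difference over the histone genes was 2.81 on the log2 scale, beside -0.05 over all genes. Many of the genes tested here were at or near 0 in B16F10. Among the 38 genes with more than 3 counts in each of the 4 groups, a cutoff chosen after seeing the data, 32 had a higher response in 4T1, and the median difference was 2.86 (range -0.30 to 6.05). As the dose differed with the line, this compares 1 µM in 4T1 with 0.1 µM in B16F10.

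The 6 clearest differences were in Hist1h2bc, Hist1h4i, Hist1h2be, Hist1h2bj, Hist1h1c and Hist1h2bk. For Hist1h2bc, which was higher with DAC in both lines, the responses differed by 2.81 (adjusted p = 3.25e-11 in edgeR), and for Hist1h1c by 1.67 (adjusted p = 1.12e-07). Hist1h2be had 7.69, 7.52 and 8.65 CPM in 4T1 DAC libraries, against 0.45, 0.433 and 0.515 CPM in 4T1 control libraries (log2 fold change 4.14), and its responses differed by 3.33 (adjusted p = 2.26e-08 in edgeR).

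For 3 of the 6 genes no change was called in B16F10. Hist1h4i had 8.87, 8.69 and 10.5 CPM in 4T1 DAC libraries, against 2.17, 2.60 and 1.98 CPM in 4T1 control libraries, a log2 fold change of 2.11, and its responses differed by 2.29 (adjusted p = 1.74e-08 in edgeR). Hist1h2bj stood at 0.229, 0.343 and 0.257 CPM in B16F10 DAC libraries, against 0.184, 0.358 and 0.298 CPM in B16F10 control libraries (log2 fold change -0.01, adjusted p = 0.988 in edgeR), and its responses differed by 5.0 (adjusted p = 4.91e-08). Hist1h2bk, an H2B gene, had 10.6, 7.11 and 10.3 CPM in 4T1 DAC libraries, against 0.313, 0.686 and 0.438 CPM in 4T1 control libraries. In B16F10 it had 0.212, 0.103 and 0.239 CPM in DAC libraries, against 0.318, 0.527 and 0.173 CPM in control libraries, and its responses differed by 5.12 (adjusted p = 7.98e-07 in edgeR).

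The single gene with a lower response in 4T1 was Hist1h2ah, an H2A gene. It shares 92.5% of its words with other genes, so how its reads were divided is uncertain. It had 1.28, 2.09 and 2.25 CPM in 4T1 DAC libraries, against 0.235, 0.433 and 0.267 CPM in 4T1 control libraries. In B16F10 it had 46.5 counts over the DAC libraries and 0 over the control libraries, at least 15.7-fold higher with DAC against a floor of 3 counts over the group. The fitted difference of -4.35 (adjusted p = 0.0298 in edgeR) rests on that group at 0 and on the prior count of the fit, and was lost without any 1 of the 3 B16F10 control replicates (adjusted p 0.0645 to 0.0757), where the count of genes with a lower response was 0. It was 2 without 4T1 DAC replicate 2, without 4T1 DAC replicate 3 and without 4T1 control replicate 1.

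Between the untreated lines, 20 of 63 genes were higher and 20 lower in 4T1 control than in B16F10 control libraries, where 40.0% of all 17127 genes tested were called higher and 37.9% lower. The higher and the lower genes lay mostly in different places. Of the 20 higher genes, 14 were in 1 stretch of chromosome 13 that had no counts in B16F10 control libraries. Without counts there, the 16 tested genes of the stretch could be called only higher in 4T1 control, so their direction was not open to the test. In the other large group on the same chromosome, of 28 genes, 27 were tested, of which 3 were higher and 15 lower. Among the 38 genes with more than 3 counts in each of the 4 groups, 2 were higher and 19 lower. Summed over all 71 genes the levels were 38.5 ± 1.67 CPM in 4T1 control and 49.6 ± 2.23 CPM in B16F10 control libraries (SD, n = 3 each).

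The 4 lower genes with the smallest adjusted p were Hist1h2bc, Hist3h2a, Hist1h3c and Hist1h1c. The log2 difference, 4T1 control minus B16F10 control, was -1.80 for Hist1h2bc (adjusted p = 4.21e-11 in edgeR), -1.02 for Hist3h2a, -3.03 for Hist1h3c (adjusted p = 1.19e-06) and -0.87 for Hist1h1c. Hist1h3c had 0.196, 0.126 and 0.305 CPM in 4T1 control libraries, below each B16F10 control library. The 4 higher genes with the smallest adjusted p were H2A genes by name, namely Hist1h2ap, Hist1h2al, Hist1h2ah and Hist1h2ai. Each was at 0 in all 3 B16F10 control libraries. Against a floor of 3 counts over the group, 4T1 control was at least 577-fold higher for Hist1h2ap, 18.5-fold for Hist1h2ah, 16.5-fold for Hist1h2al and 11.0-fold for Hist1h2ai. Hist1h2al is annotated as a processed pseudogene at chr13:51202727-51203065, away from the other histone genes.

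The stretch without counts spans 122 kb at chr13:21715763-21837530 (mm10), from Hist1h2bl to Hist1h2br, and holds 18 of the 71 genes. All 18 were at 0 in all 3 B16F10 control libraries, and 15 were at 0 in all 6 B16F10 libraries. By counting error alone, a count of 0 among the 163596706 counts of the 3 control libraries allows up to 0.0183 CPM for each gene. Reads shared with other copies may have been assigned to those, so this bound is not firm for genes with much shared sequence. The B16F10 DAC libraries held 3.83, 3.30 and 8.97 counts over the 18 genes, of which 14.1 fell on Hist1h2ap, 1.04 on Hist1h2bp and 1.00 on Hist1h4m.

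In 4T1 the same 18 genes held 1815, 2356 and 4131 counts in DAC libraries, against 489, 760 and 711 counts in control libraries. Of 16 tested in 4T1, 14 were higher with DAC, where 39.2% of all genes tested were called higher. The summed level of the 18 genes was 4.13 times as high with DAC (50.5 ± 11.7 and 12.2 ± 2.36 CPM, SD, n = 3 each). Hist1h2ap made up most of the control level, and without it the ratio was 14.8 (36.5 ± 8.22 and 2.47 ± 0.63 CPM). The nearest zinc finger genes on both sides were counted in both lines. Zkscan8, a zinc finger gene on the side of lower coordinates, had 3402 counts over the 4T1 DAC libraries, 3398 in 4T1 control, 4465 in B16F10 DAC and 5481 in B16F10 control libraries. Zfp184, the zinc finger gene on the other side, had 672, 781, 1318 and 1243 counts in those groups. Gm11273, a predicted protein-coding gene beyond Zkscan8, had 665 counts over the 4T1 DAC libraries, 796 in 4T1 control, 9.58 in B16F10 DAC and 11.4 in B16F10 control libraries. Inside the stretch the long non-coding RNA Gm11274 had 83 counts over the 4T1 DAC libraries and 0 in the other 3 groups.

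Outside the stretch, 6 of 53 genes were at 0 in all B16F10 libraries, namely Hist1h2aa, Hist1h2al, Hist1h2ba, Hist1h2bf, Hist1h2bm and Hist2h2ab. Hist1h2bm has no M21 position, but its RefSeq promoter lies inside the stretch. Within the stretch, Hist1h1b shares 3.93% and Hist1h4j 29.4% of its words with other genes, and both were at 0 in all 6 B16F10 libraries. The other genes of the stretch share 50.6% (Hist1h2bp) to 98.3% (Hist1h2bq) of their words. Where these were at 0, this may depend on how shared reads were divided. No DNA was measured, and the cause was not tested.

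**Figure D4:**
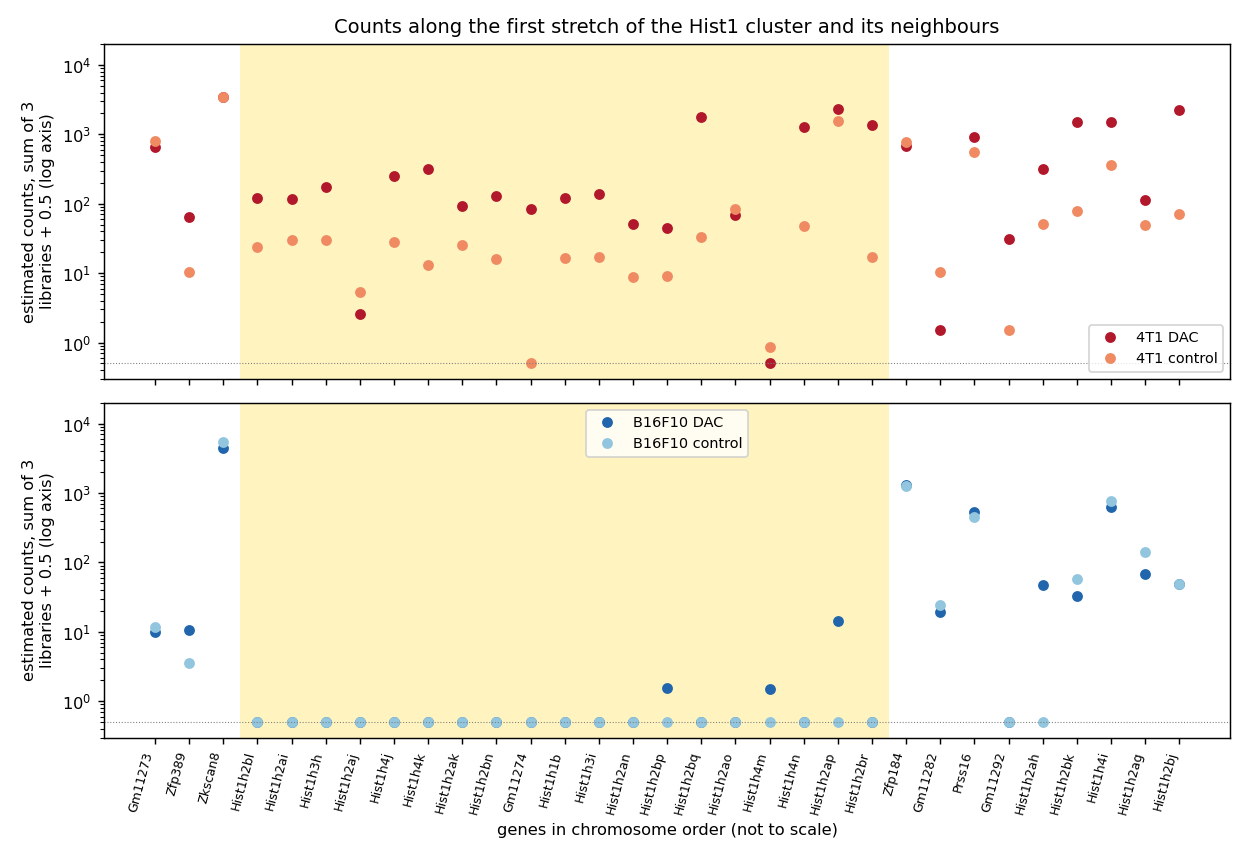
Counts summed over the 3 libraries of each group, plus 0.5 (log axis), for genes along the chromosome 13 stretch and its neighbours in order, without olfactory receptor and small RNA genes and without other genes of 20 counts or fewer. The 18 histone genes are at 0 in B16F10 control libraries, while neighbouring Zkscan8 has 4465 counts in B16F10 DAC and 5481 in B16F10 control libraries.

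The H2A and H2B genes often stand head to head, with 1 promoter region between them. There were 12 such pairs with starts at most 400 bases apart. In 4T1 both partners were tested in 10 pairs, and the H2B partner had the larger fold change in 9 of them. Per kilobase of annotated exon, the H2B partner was the higher one in 8 pairs in 4T1 DAC and in 4 pairs in 4T1 control libraries. Lengths are those of the annotated exons, so these levels carry any error in where transcripts end.

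Hist1h2ac and Hist1h2bc start 251 bases apart, in the first promoter window printed above. Their levels per kilobase were 0.264 and 61.6 CPM in 4T1 DAC and 0.0198 and 2.03 CPM in 4T1 control libraries, and their log2 fold changes were 3.70 and 4.97. Hist1h2ag and Hist1h2bj start 270 bases apart, and their log2 fold changes were 1.18 and 5.04. For Hist1h2ap and Hist1h2br, 236 bases apart, they were 0.57 and 6.37. Other pairs lay closer, with 2.66 and 2.41 for Hist1h2an and Hist1h2bp and 2.04 and 2.39 for Hist1h2ai and Hist1h2bl. Differences within pairs were not tested, and some of these genes share reads with other copies.

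The genes were also grouped by the end of their annotated transcripts, with groups set after seeing the data and given as a description. In 21 genes the annotated transcript ends within 100 bases of the stem-loop, and these summed to 76.1 ± 9.58 CPM in 4T1 DAC and 14.1 ± 2.32 CPM in 4T1 control libraries, a ratio of 5.41. In 21 others an annotated transcript runs further past it, and these summed to 113 ± 8.65 and 16.2 ± 2.07 CPM, a ratio of 6.95. In 4 genes, Hist1h2bc, Hist1h2bq, Hist1h2br and Hist2h2be, a transcript of more than 1000 bases has no stem-loop, and these summed to 95.5 ± 11.4 and 4.80 ± 0.50 CPM, a ratio of 19.9 (SD, n = 3 each, DAC first).

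In B16F10 the ratios of DAC to control for the same 3 groups were 1.21, 1.73 and 3.68. Single genes set these ratios. In 4T1 the ratio was 14.5 without Hist1h2ap for genes that end near the stem-loop, 5.84 without Hist1h1c for those that run past it and 9.96 without Hist1h2bc for the long transcripts, so the order of the 3 groups turned. In B16F10 the ratios without these genes were 1.20, 1.07 and 1.53. Genes that end near the stem-loop were higher in 4T1 too, as Hist1h2bj shows. The counts cannot tell how much of a gene's level came from transcripts cut at the stem-loop.

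Counting of near-identical copies is uncertain, since only the name of RSEM is given for how shared reads were divided. Among the 26 genes that share less than 50% of their 31-base words with any other gene, 22 were tested in 4T1 and all 22 were higher. In B16F10 14 of them were tested, of which 5 were higher. Of all genes tested, 39.2% were called higher in 4T1 and 21.4% in B16F10. The summed level of the 26 genes was 10.5 times as high with DAC in 4T1 and 2.30 times as high in B16F10. The 26 include the pseudogene Hist3h2bb-ps and the non-coding row Hist2h2bb(Gm42743). The latter stood at 31.2 CPM in 4T1 DAC and 0.202 CPM in 4T1 control libraries. Some genes of the Hist2 cluster share sequence with overlapping long transcripts. Hist2h3c1 shares all of its words with Gm20634, which stood at 7.25 CPM in 4T1 DAC and 0.392 CPM in 4T1 control libraries, and the reads of both cannot be told apart here.

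Genes that act with histone transcripts and proteins are given next, on the TMM scale, which in 4T1 lies above that of library size alone as stated for all genes. Their counts stand beside shares over all genes of 39.2% higher and 36.1% lower in 4T1, and 21.4% higher and 19.8% lower in B16F10. Among histones outside the name rule, such as the variants H2A.Z and H3.3, 3 of 10 tested genes were higher and 6 lower in 4T1 (median -0.27), and 1 was higher and 7 lower in B16F10 (median -0.28). H3f3b, which encodes H3.3, stood at 2227 CPM in 4T1 DAC and 885 CPM in 4T1 control libraries (log2 fold change 1.38, adjusted p = 9.38e-10 in edgeR). H3f3a, which encodes the same protein, stood at 152 and 357 CPM (log2 fold change -1.19, adjusted p = 5.48e-09). H2afj rose by 0.48 in 4T1 and by 0.55 in B16F10, H2afx fell by 0.78 in 4T1, and in B16F10 H1f0, the replacement linker histone, fell by 0.99 and H2afz fell by 0.60 on the log2 scale.

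Of 29 factors of histone gene transcription and 3′ end processing, 6 were higher and 13 lower in 4T1 (median -0.10), and 1 was higher and 16 lower in B16F10 (median -0.25). Of all genes 36.1% were lower in 4T1 and 19.8% in B16F10. Slbp, which encodes the stem-loop binding protein, stood at 103 ± 3.66 CPM in 4T1 DAC and 128 ± 3.64 CPM in 4T1 control libraries, and at 96.9 ± 6.75 CPM in B16F10 DAC and 132 ± 2.01 CPM in B16F10 control libraries (SD, n = 3 each). Npat, which encodes the activator that gathers at histone loci, fell by 0.26 in 4T1 and by 0.22 in B16F10 on the log2 scale. In 4T1 the processing factor genes Fip1l1 and Srrt rose by 0.49 and 0.47, and Cdk2 and the U7 particle gene Lsm11 fell by 0.65 and 0.59. In B16F10 the cyclin gene Ccne1 rose by 0.27, and Ccna2 and Cdk2 fell by 0.48 and 0.49.

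Of 20 factors of histone mRNA decay, 4 were higher and 10 lower in 4T1 (median -0.13), and 2 were higher and 6 lower in B16F10 (median -0.08), with the same shares over all genes beside them. The exosome genes Exosc10 and Dis3 rose by 0.74 and 0.33 in 4T1, and the Lsm ring genes Lsm6 and Lsm2 fell by 0.85 and 0.87. In B16F10 Dis3 rose by 0.56 and Lsm7 by 1.02, and Lsm4 fell by 0.38 and the exonuclease gene Eri1 by 0.27. Of 22 chaperones and carriers of new histones, 5 were higher and 14 lower in 4T1 (median -0.27), and 1 was higher and 13 lower in B16F10 (median -0.21). Daxx, which encodes a chaperone of H3.3, rose by 1.42 in 4T1 and the importin gene Ipo4 by 0.80, while Nap1l1 fell by 0.64 and Asf1b by 0.56. In B16F10 Ipo4 rose by 0.47, and Mcm2 and Chaf1b fell by 0.64 and 0.73.

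**Figure D5:**
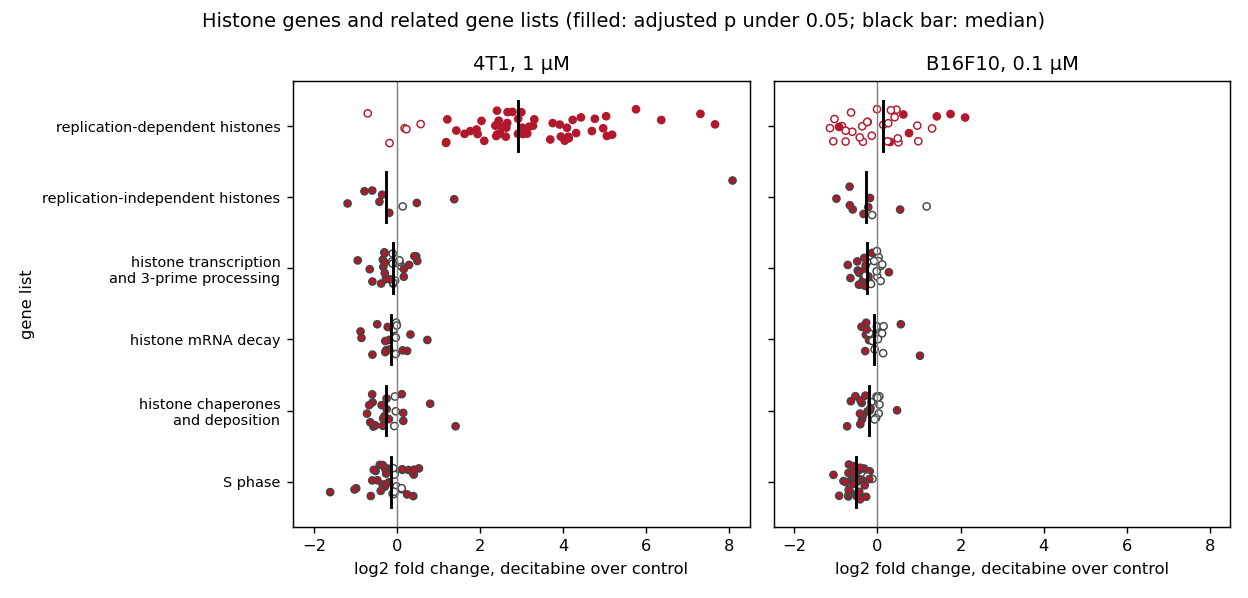
Log2 fold change (DAC over control) of each tested gene in the histone genes and in the related lists, for 4T1 and B16F10. The histone genes have medians of 2.92 in 4T1 and 0.14 in B16F10, and S phase genes have medians of -0.15 and -0.52. H2bfm, at 8.08 in 4T1, had 0 counts in control libraries.

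Polyadenylated transcripts of S phase were mostly lower in B16F10. Of 38 such genes, 10 were higher and 19 lower in 4T1 (median -0.15), where 39.2% of all genes were higher and 36.1% lower. In B16F10 36 were lower and 0 higher in edgeR (median -0.52), where 19.8% of all genes were lower and 21.4% higher, with 0 higher also at an unadjusted p under 0.05, in DESeq2 and in limma-voom. Tk1, the thymidine kinase gene of S phase, stood at 52.9 ± 3.97 CPM in 4T1 DAC and 167 ± 13.5 CPM in 4T1 control libraries, and at 46.7 ± 0.88 CPM in B16F10 DAC and 97.7 ± 7.73 CPM in B16F10 control libraries (SD, n = 3 each). In 4T1 Dut fell by 0.63, and the clamp loader genes Rfc4 and Rfc5 rose by 0.53 and 0.40, while in B16F10 the polymerase gene Pold1 fell by 0.92. The response was higher in 4T1 for 23 of the 38 and lower for 4, where 20.9% of all genes were called higher and 28.9% lower.

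A list of 28 other RNAs held RNAs with a form known to lack a poly(A) tail. It also held Snhg1, a polyadenylated comparison that was not among the counted genes. Counts per gene, as for Neat1, do not tell forms with and without a tail apart. Of the 27 in the files, 6 were tested in 4T1, of which 2 were higher. In B16F10 7 were tested, of which 3 were higher and 1 lower. Rn7s1 and Rn7s2 had the same values in every group, and each counts as a tested gene. Rn7sk, which encodes the 7SK RNA, stood at 1.69 ± 0.90 CPM in 4T1 DAC and 0.303 ± 0.12 CPM in 4T1 control libraries (SD, n = 3 each), and Rpph1, the RNA of ribonuclease P, at 0.336 ± 0.06 and 0.0497 ± 0.03 CPM. In B16F10 Rn7sk rose by 1.60, Rmrp by 1.55 and Rpph1 by 0.97, and Neat1 fell by 1.12 on the log2 scale. Malat1 stood at 436 ± 13.4 CPM in 4T1 DAC and 464 ± 56.9 CPM in 4T1 control libraries and was not called in either line. Among all genes tested 39.2% were called higher in 4T1 and 21.4% in B16F10. The part of the called RNAs in the histone results was not tested. The testis histones Hist1h1t, Hist1h2aa and Hist1h2ba, members by name, had too few counts to be tested in either line.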

How the data were processed

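RNA was sequenced from the 12 libraries with a kit that offers molecular indices, per the labels' protocols. Use of the indices in counting is not described. The authors deposited estimated counts per gene, not scaled between libraries, in 1 table per line. The submitters' processing notes name RSEM, edgeR and the build mm10 without roles or versions. For the aligner, the annotation, filters and strand no statement is given in the sources used here.

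Groups came from the labels. Estimated counts were rounded to whole numbers, and the 6 libraries of a line were fitted together in edgeR 4.0.16 under R 4.3.3 (quasi-likelihood, robust, default expression filter, TMM, Benjamini-Hochberg over all tested genes, threshold 0.05). The difference of responses and the untreated lines were contrasts in a fit of all 12 libraries. limma 3.58.1, DESeq2 1.42.0, other scalings, filters and left-out libraries were alternatives. Library totals and the precision they give stand in the report. Between replicates the chi-square per degree of freedom was at least 6.15, so no pair agreed within sampling noise. Files were joined to GENCODE M21 by identifier (46005 of 46517 rows). Plots used matplotlib 3.10.9 and Python 3.11.15. The test was also tried on simulated data.

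Members, lists and tests were chosen with earlier results of these data known. Named per line were the 8 largest increases and decreases among called genes whose higher group averaged at least 2 CPM, the 6 highest genes and every H1 gene. Named for the difference were 6 per direction, for the untreated lines 4 per direction, and for each list up to 2 rising and 2 falling genes per line, by smallest adjusted p. Hist1h2be and Hist1h3c in B16F10, H3f3a beside H3f3b, Slbp, Npat and Malat1 were also named.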

Additional observations from a re-analysis of the deposited data

Results flagged for a closer look

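These results are listed because the 2 lines differed in their response to DAC in the test of the difference itself, 4T1 minus B16F10. The difference on the log2 scale was 2.81 for Hist1h2bc, 2.29 for Hist1h4i, 3.33 for Hist1h2be, 5.0 for Hist1h2bj, 1.67 for Hist1h1c, 5.12 for Hist1h2bk and -4.35 for Hist1h2ah. The value for Hist1h2ah rests on 0 counts in B16F10 control libraries, and its call was lost without any 1 of them. Over the 63 tested genes, 34 had a higher response in 4T1 and 1 a lower one. Dose and line cannot be told apart in these differences.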

How the results depend on the processing

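The alternatives changed 1 choice at a time, except that DESeq2 also used its own scaling. In 4T1 the 54 higher genes became 21 with a mean of at least 1 CPM and 22 among genes that share less than 50% of their words (chosen after seeing the data), as fewer genes were tested, and the 0 lower genes became 1 without a filter. In B16F10 the 1 lower gene became 3 in limma-voom, 4 without a filter, 5 in a fit of all 12 libraries and 0 among genes with less shared sequence. For the difference, the 34 higher genes became 14 with a mean of at least 1 CPM and 18 among genes with less shared sequence, and the 1 lower gene became 2 in DESeq2, 0 in limma-voom, 2 with library size alone, 0 with a mean of at least 1 CPM and 0 among genes with less shared sequence. For the untreated lines, the 20 higher and 20 lower genes became 6 and 7 with a mean of at least 1 CPM, and 3 and 9 among genes with less shared sequence. With library size alone the log2 ratio of the summed level in 4T1 was 2.88 in place of 3.13, and that of H2B 4.25 in place of 4.50.

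Leaving out 1 library at a time gave 54 to 56 higher and 0 to 1 lower genes in 4T1, 4 to 7 higher and 0 to 3 lower in B16F10, 29 to 35 higher and 0 to 2 lower for the difference, and 20 to 25 higher and 16 to 20 lower for the untreated lines. The log2 ratio of the summed level ranged over 3.03 to 3.18 in 4T1 and 0.94 to 1.08 in B16F10. The fold change of Hist1h1e in B16F10 ranged over -0.62 to 0.06, and was 0.062 without B16F10 DAC replicate 1 and 0.051 without B16F10 DAC replicate 2. The call on Hist3h2a in B16F10 was also lost without a filter (adjusted p = 0.0909 in edgeR) and in 5 of 6 fits without 1 library (0.0606 to 0.211).

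Same-numbered libraries of a line had correlations of at most 0.0336 in their deviations from the group means. With 3 libraries per group these correlations cannot settle whether the replicate numbers pair the libraries. With the replicate block, 54 genes were higher and 0 lower in 4T1, 5 and 1 in B16F10, 34 and 2 for the difference, and 12 and 17 for the untreated lines. In that fit Hist1h2ap in 4T1 passed (adjusted p = 0.0265 in edgeR). Where these results moved, the cause was not tested. Of the 71 genes, 38 had too few counts to be tested in B16F10, of which 21 were at 0 in all 6 libraries, and 12 in 4T1.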

Other observations

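Near-identical copies were at 0 in some libraries and not in others of the same group. Hist2h2aa1 had 0, 0 and 0 CPM in 4T1 DAC libraries and 0.215, 0.018 and 0 CPM in 4T1 control libraries, while its identical copy Hist2h2aa2 had at least 18.6 CPM in DAC and 0.469 to 0.705 CPM in control libraries. Hist4h4, the single Hist4 gene, shares 6.82% of its words with Cep112os2, which stood at 637 CPM in 4T1 DAC and 11.2 CPM in 4T1 control libraries, and at 53.2 CPM in B16F10 DAC and 12.1 CPM in B16F10 control libraries. Hist4h4 itself rose by 1.22 in 4T1 (adjusted p = 0.00288 in edgeR) and had a log2 fold change of -0.25 in B16F10 (adjusted p = 0.688).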
